A study of Mus musculus with 4 samples.

Results

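The 4 libraries of poly(A) RNA from embryonic day 13 mouse brain carry 2 replicate numbers, and the brains numbered 2 (2 libraries) were compared here with the brains numbered 1 (2 libraries), out of 4 libraries in all. Each number holds 1 Wt1_flfl brain, labelled as wild type and carrying floxed Wt1 alleles (Wt1fl/fl), and 1 Wt1_CKO brain, the conditional knockout of Wt1, and all were on a C57BL/6 background. Genotype was therefore balanced between the numbers. The labels give neither the Cre line nor the brain region dissected, and they do not say that the numbers stand for separate animals, litters or days, so a p-value here reflects only how far these samples vary, which may be technical variation.

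At this age the brain is laying down its first neurons. Radial glia, the dividing stem cells that line the ventricles, first make neurons of the deep cortical layers and later switch to upper-layer neurons and glia, so that genes of early progenitors fall and genes of later radial glia rise as development goes on. The dorsal telencephalon makes excitatory neurons of the cortex, and the ventral telencephalon makes GABAergic interneurons and striatal cells. The blood inside the brain changes over the same days: primitive red cells from the yolk sac carry embryonic globins (Hba-x, Hbb-y and Hbb-bh1), and definitive red cells from the fetal liver carry adult globins (Hba-a1, Hba-a2, Hbb-bs and Hbb-bt).

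The libraries held between 16219310 and 17704698 counts, and 19500 genes were listed for both numbers, of which 15933 passed the filter on low counts. Scaling factors lay between 0.991 and 1.006. Among the markers that check the tissue, Tubb3, a neuronal tubulin, stood at 2378, 1985, 2205 and 2052 CPM (counts per 1000000) and Emx2, a transcription factor of the cortical primordium, at 42.5, 44.8, 40.6 and 49.8 CPM. Values of 4 libraries are given throughout in the order Wt1_flfl replicate 1, Wt1_CKO replicate 1, Wt1_flfl replicate 2, Wt1_CKO replicate 2. Of 19 spinal cord Hox genes, 18 were not listed in the tables. The Wt1_CKO replicate 1 library stood apart in sex-linked RNA, which was therefore not balanced between the numbers. That library had 4 counts of Xist, the RNA of the inactive X chromosome, against 13086 to 16472 in the other 3. Non-polyadenylated RNAs such as Rn7sk and the replication histones were most abundant in the Wt1_flfl replicate 1 library, with a summed level of 152.8, 24.0, 18.9 and 22.7 CPM. Annotated ribosomal RNA took 0.458% of that library's counts against 0.0184% to 0.0451% in the other 3.

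Between the numbers, 1138 of 15933 genes passed an adjusted p of 0.05 in edgeR's quasi-likelihood test with genotype as a block (7.14%). Replicate 2 was higher for 590 of them (3.7%) and lower for 548 (3.44%), and these genes are called higher or lower below. The fit has 1 residual degree of freedom, so each test leans on a spread shared across genes. Leaving out 1 library at a time left between 71 calls (without Wt1_CKO replicate 1) and 940 (without Wt1_CKO replicate 2), with 132 without Wt1_flfl replicate 1 and 440 without Wt1_flfl replicate 2. Of the 1138 genes, 41 were called in the same direction in all 4 of those fits, 15 higher and 26 lower. Genotype gave 1 called gene without the replicate block and 42 with it (0.264%).

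The difference between the numbers was then measured inside each genotype, in 2 pairs that share no library. Over all 15933 genes, 64.72% had the same sign in both genotypes, with Pearson's r of 0.281 and Spearman's rho of 0.358. Among the 10140 genes averaging 10 CPM or more these were 67.88%, 0.398 and 0.488. These are descriptions across genes, which are not independent replicates, and each pair's difference also carries its own 2 libraries' preparation. Of the called genes, 1133 moved the same way in both genotypes, which the test favours. The other 5, named after their values were seen, were Nkx2-2, Afp, Rn7sk, Erdr1 and Gm7993. Afp, a serum protein of yolk sac and fetal liver, was high in Wt1_flfl replicate 2 alone, at 0, 0.843, 60.9 and 0.0581 CPM.

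**Figure D1:**
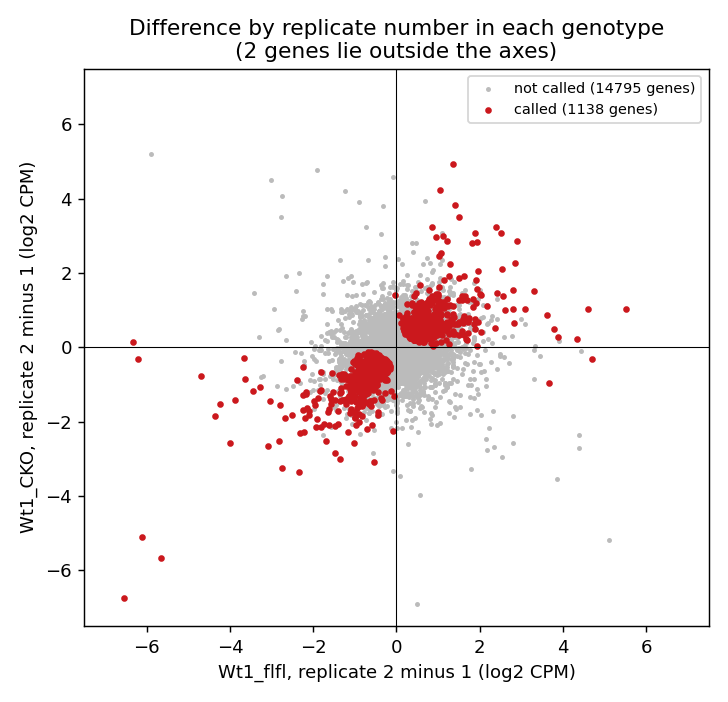
Each point is 1 of 15933 tested genes, with replicate 2 minus replicate 1 in Wt1_flfl on the x axis and in Wt1_CKO on the y axis, both in log2 CPM. Red points are the 1138 called genes, of which 1133 lie in the lower left or upper right quadrant, and 2 genes lie outside the axes.

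The embryonic globins had the largest median log2 difference among the blood lists, at 2.384. The adult globins had a median of 0.556, and the other red cell genes 0.655. The promoters of 2 embryonic globin genes that were called higher and of 2 adult globin genes that went in opposite directions are shown because they carry the letters of motifs long known in globin promoters. Each run holds the 250 bases before the start of the gene, 5′ to 3′ on the gene's strand, from RefSeq on GRCm38.p6: Hba-x at chr11:32276350-32276599 (plus strand), Hbb-y at chr7:103853208-103853457 (minus strand), Hba-a1 at chr11:32283422-32283671 (plus strand) and Hbb-bs at chr7:103827929-103828178 (minus strand). Capitals mark matches on either strand to the motif CACCC, to the CCAAT box, to the GATA core GATAA, and to either of 2 TATA-like motifs, ATAAA on the one hand and ATATAA on the other. Those 2 can overlap each other, and in Hbb-y a GATAA match on the opposite strand lies directly beside an ATAAA match. The set of motifs was settled after these sequences had been seen.
Hba-x: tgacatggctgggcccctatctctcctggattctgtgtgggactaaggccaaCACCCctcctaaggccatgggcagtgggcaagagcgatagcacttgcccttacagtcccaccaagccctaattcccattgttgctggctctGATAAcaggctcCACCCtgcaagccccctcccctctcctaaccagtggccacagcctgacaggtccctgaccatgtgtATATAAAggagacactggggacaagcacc
Hbb-y: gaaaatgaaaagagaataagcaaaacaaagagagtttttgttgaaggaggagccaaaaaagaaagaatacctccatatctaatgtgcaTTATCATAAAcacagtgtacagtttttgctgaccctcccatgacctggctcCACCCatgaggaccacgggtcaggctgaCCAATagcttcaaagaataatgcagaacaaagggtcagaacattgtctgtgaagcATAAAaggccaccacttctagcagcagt
Hba-a1: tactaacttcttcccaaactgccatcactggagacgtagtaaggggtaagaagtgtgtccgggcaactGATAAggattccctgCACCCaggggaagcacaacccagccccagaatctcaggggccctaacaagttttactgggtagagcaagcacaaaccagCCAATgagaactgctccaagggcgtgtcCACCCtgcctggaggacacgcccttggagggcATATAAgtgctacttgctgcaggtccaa
Hbb-bs: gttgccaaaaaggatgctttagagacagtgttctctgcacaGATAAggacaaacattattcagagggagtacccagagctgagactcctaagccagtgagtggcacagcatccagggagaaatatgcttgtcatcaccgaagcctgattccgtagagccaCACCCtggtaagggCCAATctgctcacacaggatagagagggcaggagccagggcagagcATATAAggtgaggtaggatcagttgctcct

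CACCC, the core of the site of KLF1, a red cell transcription factor, lay in all 4 windows, with its first base 198 and 95 bases before the start in Hba-x, 111 in Hbb-y, 167 and 60 in Hba-a1 and 90 in Hbb-bs. CCAAT, the box bound by NF-Y, lay at 83 in Hbb-y, 88 in Hba-a1 and 76 in Hbb-bs, and no CCAAT stood in the window of Hba-x. GATAA, the core of the GATA1 site, lay at 107 in Hba-x, 162 in Hbb-y on the other strand, 182 in Hba-a1 and 209 in Hbb-bs. The TATA-like letters ATATAA lay at 29 in Hba-x, 28 in Hba-a1 and 30 in Hbb-bs, and ATAAA at 27 in Hba-x and at 157 and 28 in Hbb-y. Of all 32841 promoter windows in that table, 52% held the motif CACCC, 33.9% the CCAAT box, 22.6% the core GATAA, 37.3% the letters ATAAA and 9.1% the letters ATATAA. The embryonic and the adult genes share most of these letters, and a match is a description of the sequence only.

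All 3 embryonic globins that passed the filter, of 4 in the list, were called higher in replicate 2. Hba-x, the embryonic alpha-like globin zeta, stood at 75.1, 45.4, 287 and 326 CPM. Both replicate 2 brains lay above both replicate 1 brains, by 2.38 ± 0.45 on the log2 scale (SE over the 2 genotypes, here and below; adjusted p = 7.5e-09). Such an SE rests on 2 differences per gene. It can be small by accident, even below counting error, so a small SE is not a measure of precision. Hbb-y, an embryonic beta-like globin, stood at 423, 360, 849 and 974 CPM, a log2 difference of 1.22 ± 0.22 (adjusted p = 1.27e-06). Hbb-bh1, the other embryonic beta-like gene, stood at 7.78, 3.48, 20.9 and 51.0 CPM, a log2 difference of 2.59 ± 1.21 (adjusted p = 8.11e-05). The replicate groups of these genes did not overlap, and the Wt1_CKO replicate 2 brain was the highest for each. Here and below, the test favours such a separation for called genes, and its share over all tested genes was not counted. Hba-x and Hbb-y were also called in all 4 fits without 1 library.

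The adult globins did not move together. Hba-a1, an adult alpha globin, stood at 216, 257, 457 and 285 CPM (log2 difference 0.61 ± 0.46, adjusted p = 0.0119). Hba-a2 stood at 7.29, 1.85, 14.1 and 15.4 CPM (1.86 ± 1.02, adjusted p = 0.00113). These near-identical genes share reads that the counting could split or discard, so each of their values is uncertain, and the same holds for Hbb-bs and Hbb-bt. Hbb-bs, the more abundant of that adult beta pair, stood at 177, 205, 130 and 58.3 CPM and was called lower (-1.12 ± 0.68, adjusted p = 0.00101), while Hbb-bt stood at 50.9, 29.9, 60.2 and 50.8 CPM and was called higher (0.50 ± 0.26, adjusted p = 0.0175). For Hbb-bt the 2 groups overlapped, since Wt1_flfl replicate 1 (50.9 CPM) lay just above Wt1_CKO replicate 2 (50.8 CPM). No adult globin was called without Wt1_CKO replicate 1, without the genotype term or in DESeq2. Without Wt1_flfl replicate 1 there was 1 higher call and no lower one, and without Wt1_flfl replicate 2 there was 1 of each.

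Embryonic genes made up 52.87% of all globin counts in Wt1_flfl replicate 1 (95% Wilson interval 52.08% to 53.65%) and 45.31% in Wt1_CKO replicate 1 (44.54% to 46.08%). In replicate 2 the share was 63.66% (63.13% to 64.19%) in Wt1_flfl and 76.75% (76.27% to 77.22%) in Wt1_CKO. The intervals cover counting error only, and with 2 brains against 2 an exact permutation test cannot go below a two-sided p of 0.333. They leave out reads of the near-identical adult genes that the counting could discard, so the absolute shares are uncertain. Both replicate 2 shares lay above both replicate 1 shares, and the gap between the genotypes within replicate 2 was wider than the gap between the numbers within Wt1_flfl. All globins together took 0.0948% and 0.0907% of the replicate 1 libraries and 0.181% and 0.177% of the replicate 2 libraries.

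Other red cell genes were higher as well. Of 27 in the list, 18 passed the filter, and 7 were called higher and none lower at this threshold in edgeR. The median log2 difference was 0.655 against -0.004 over all tested genes. With a minimum count of 50 in the filter, 11 genes remained, 4 were called higher and the median was 0.265. The list's summed level was 434.5, 442.8, 563.4 and 565.4 CPM. Slc4a1, the anion exchanger band 3 of the red cell membrane, stood at 4.42, 2.92, 23.8 and 28.3 CPM, a log2 difference of 2.84 ± 0.41 (adjusted p = 6.61e-08), and was called in all 4 fits without 1 library. Kel, the Kell blood group protease, stood at 0.498, 0.506, 3.39 and 5.11 CPM (3.05 ± 0.28, adjusted p = 0.000109). Alas2, the first enzyme of red cell haem synthesis, stood at 9.90, 9.50, 19.1 and 17.8 CPM (0.93 ± 0.02, adjusted p = 0.00174). For each of the 3, both replicate 2 brains lay above both replicate 1 brains. In bulk tissue, more cells of a type and more RNA per cell cannot be told apart. Without Wt1_flfl replicate 1, 1 gene of the list was called higher, and the same count held without Wt1_CKO replicate 1, while DESeq2 called 3.

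**Figure D2:**
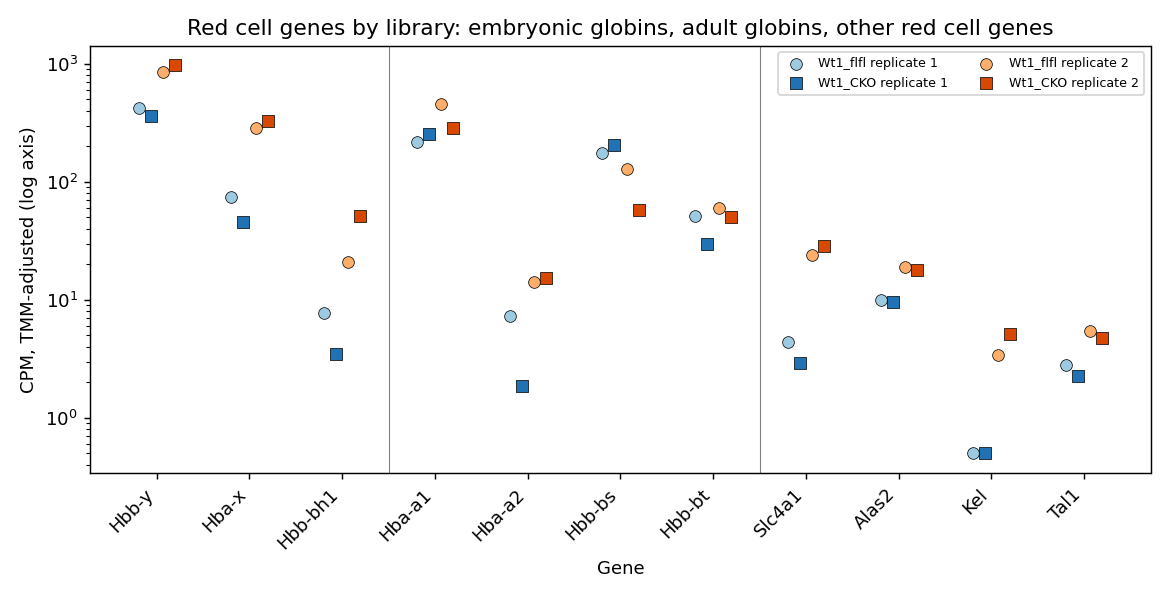
CPM on a log axis for 3 embryonic globins, 4 adult globins and 4 other red cell genes, with 1 point per library, circles for Wt1_flfl, squares for Wt1_CKO, blue for replicate 1 and orange for replicate 2. The orange points lie above the blue ones for each embryonic globin, for the adult globins Hba-a1 and Hba-a2, and for Slc4a1, Alas2, Kel and Tal1. They lie below the blue ones for Hbb-bs and overlap them for Hbb-bt.

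The lists of other cells of the blood and vessels held few calls. With lists this short, such counts cannot be told apart from the 7.14% called over all tested genes. Of 17 microglia and macrophage genes tested, 1 was called: P2ry12, a purinergic receptor of microglia, was lower at 7.91, 8.38, 5.03 and 3.02 CPM (-1.05 ± 0.40, adjusted p = 0.0123). DESeq2 called none of the 17, and neither did edgeR without the genotype term. None of 18 endothelial genes was called in edgeR, with a median log2 difference of 0.158 and a summed level of 322.7, 295.8, 336.3 and 319.0 CPM, so these sums overlapped between the numbers. None of 5 platelet genes and none of 8 pericyte and smooth muscle genes was called in edgeR. At an unadjusted p under 0.05 there were 2 endothelial, 1 platelet and 2 pericyte genes, and DESeq2 and limma-voom called 0 in each of the 3 lists.

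Genes of developmental stage moved in 2 directions. Of 14 heterochronic genes, which are high in early progenitors and fall with age, all passed the filter. Of the 14, 6 were called higher and none lower, and 12 were higher in both genotypes (5135 of 15933 over all tested genes). Their median log2 difference was 0.342, with 0.347 inside Wt1_flfl and 0.326 inside Wt1_CKO, and their summed level was 661, 619, 899 and 926 CPM. Ccnd1, cyclin D1, which drives entry into the cell cycle, stood at 82.8, 84.8, 166 and 172 CPM, a log2 difference of 1.01 ± 0.01 (adjusted p = 1.05e-06). Within each number its 2 libraries were nearly equal. Igf2bp1, an RNA-binding protein of fetal tissue, stood at 102, 101, 153 and 169 CPM (0.66 ± 0.08, adjusted p = 0.00014). Hmga2, a chromatin protein of young stem cells, stood at 62.0, 49.4, 79.9 and 108 CPM (0.75 ± 0.38, adjusted p = 0.00147), and Fgf15, a secreted growth factor of the early neuroepithelium, at 33.1, 22.6, 46.6 and 38.7 CPM (0.63 ± 0.14, adjusted p = 0.00351). Lin28a and Lin28b, which block maturation of let-7 microRNAs, were not called, with Lin28b at 15.6, 14.3, 21.0 and 17.6 CPM (0.37 ± 0.06, adjusted p = 0.165).

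Genes of neural stem cells and radial glia were also higher, with 6 of 18 called higher, none lower and a median of 0.231. Nes, which encodes the intermediate filament nestin, stood at 466, 521, 782 and 817 CPM (0.70 ± 0.05, adjusted p = 0.000164). Hes5, a Notch target that keeps progenitors undifferentiated, stood at 12.9, 10.5, 22.5 and 25.8 CPM (1.05 ± 0.25, adjusted p = 0.000516). Both genes were higher in each replicate 2 brain than in either replicate 1 brain. Sox2 and Pax6, progenitor transcription factors, were not called, with Sox2 at 307, 260, 348 and 327 CPM and Pax6 at 123, 132, 116 and 126 CPM. The 6 calls fell to 1 when Wt1_flfl replicate 1 was left out and to 1 when Wt1_CKO replicate 1 was left out. They fell to 3 when Wt1_flfl replicate 2 was left out, and DESeq2 also called 3.

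The 22 genes of later radial glia and gliogenesis went the other way, with 8 called lower and 2 higher. Of the 22, 15 were lower in both genotypes (5156 of 15933 over all tested genes), and the list's median was -0.272. Nfix, a nuclear factor I gene that promotes progenitor maturation, stood at 314, 461, 131 and 173 CPM (-1.34 ± 0.08, adjusted p = 2.97e-08), and Nfib, its relative, at 461, 615, 248 and 294 CPM (-0.98 ± 0.09, adjusted p = 4.14e-06). Aldoc, aldolase C of astrocytes and their precursors, stood at 137, 165, 37.2 and 63.6 CPM (-1.62 ± 0.25, adjusted p = 2.99e-08). For these 3 genes both replicate 2 brains lay below both replicate 1 brains, and within each number Wt1_CKO lay above Wt1_flfl. Mt3, a metallothionein, was called higher (0.92 ± 0.31, adjusted p = 0.00254). Fabp7, Slc1a3 and Ptprz1, radial glia genes of the same list, were not called, with log2 differences of -0.27 ± 0.10, -0.23 ± 0.18 and -0.20 ± 0.09. Without Wt1_CKO replicate 1, 1 of the list's genes was called lower, and 1 heterochronic gene was called higher without Wt1_flfl replicate 1, as also without Wt1_CKO replicate 1. DESeq2 called 2 heterochronic genes higher. The oligodendrocyte lineage list did not go lower: of its 8 genes, all tested, 2 were called higher and none lower. Its median was 0.316, with 0.379 inside Wt1_flfl and 0.146 inside Wt1_CKO. Of the 2 called genes, Nkx2-2 was high in Wt1_flfl replicate 2 alone, and DESeq2 called 1 gene of the list higher.

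Genes of early-born deep-layer neurons were lower in replicate 2. Of 12 genes, all tested, 8 were called lower and none higher, with a median of -0.567 (-0.522 inside Wt1_flfl and -0.597 inside Wt1_CKO) and a summed level of 1978, 2203, 1357 and 1484 CPM. Neurod6, a factor of young excitatory cortical neurons, stood at 601, 762, 306 and 364 CPM (-1.02 ± 0.05, adjusted p = 2.43e-06), and Fezf2, which specifies corticospinal neurons, at 112, 124, 65.2 and 71.4 CPM (-0.78 ± 0.01, adjusted p = 2.48e-05). Tbr1, which specifies layer 6 neurons, stood at 345, 356, 260 and 264 CPM (-0.42 ± 0.01, adjusted p = 0.0066). Each of the 3 was lower in both replicate 2 brains. Neurod6 and Fezf2 were called in all 4 fits without 1 library. The list had between 2 and 7 lower calls in those fits, with medians from -0.66 to -0.477.

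Other neuronal lists held smaller shares of lower genes. Of 12 genes of late-born upper-layer neurons, 2 were called lower, among them Unc5d, a netrin receptor, at 25.3, 29.6, 16.5 and 16 CPM (-0.76 ± 0.13, adjusted p = 0.00286). Of 18 young-neuron genes, 5 were called lower and none higher, including Neurod1 at 62.8, 59.1, 29.1 and 34.5 CPM (-0.94 ± 0.17, adjusted p = 4.63e-05). The fits without 1 library gave 1 or 2 lower calls among these genes: 2 without Wt1_flfl replicate 2 and 1 in each of the other fits. Among 28 genes of mature neurons and synapses, 8 were called lower and 2 higher. Gria2, an AMPA receptor subunit, stood at 226, 295, 133 and 146 CPM (-0.89 ± 0.12, adjusted p = 5.78e-06), while Nefm, a neurofilament gene, was higher at 59.5, 52.5, 90.0 and 87.1 CPM (0.67 ± 0.07, adjusted p = 0.000253). DESeq2 called 2 lower and 2 higher in this list. When Wt1_flfl replicate 1 was left out 1 gene was called lower, and the count was also 1 when Wt1_CKO replicate 1 was left out. It was 2 when Wt1_flfl replicate 2 was left out, and 5 for the remaining library. In the list of Cajal-Retzius and preplate cells, 1 of 10 genes was called lower and none higher. The list's median was nevertheless 0.246, and 4 members were higher in both genotypes (5135 of 15933 over all tested genes). The called gene, Reln, which encodes the secreted protein reelin, was lower at 170, 228, 103 and 134 CPM (-0.75 ± 0.02, adjusted p = 2.32e-05). No gene of that list was called in edgeR without Wt1_flfl replicate 1 or, in another fit, without Wt1_CKO replicate 1, and 4 were called higher without Wt1_CKO replicate 2. Tubb3 and Dcx, which mark young neurons at large, were not called, with log2 differences of -0.03 ± 0.08 and -0.13 ± 0.03.

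Cell cycle genes were near the median of all genes. Of 25 genes of S phase, 3 were called higher and 1 lower (median 0.018), and of 25 genes of G2 and M phase, 1 was called lower and none higher (median -0.034). DESeq2 called no S phase gene, nor did edgeR without Wt1_flfl replicate 1 or, in another fit, without Wt1_CKO replicate 1. Mki67, a marker of dividing cells, stood at 371, 458, 356 and 382 CPM and was not called (-0.16 ± 0.10, adjusted p = 0.366). Among 12 genes of intermediate progenitors and proneural factors, 2 were higher and 2 lower. Eomes, the factor of cortical intermediate progenitors, was lower at 153, 180, 114 and 141 CPM (-0.39 ± 0.03, adjusted p = 0.0092). No gene of this list was called lower in DESeq2 or in edgeR without the genotype term.

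**Figure D3:**
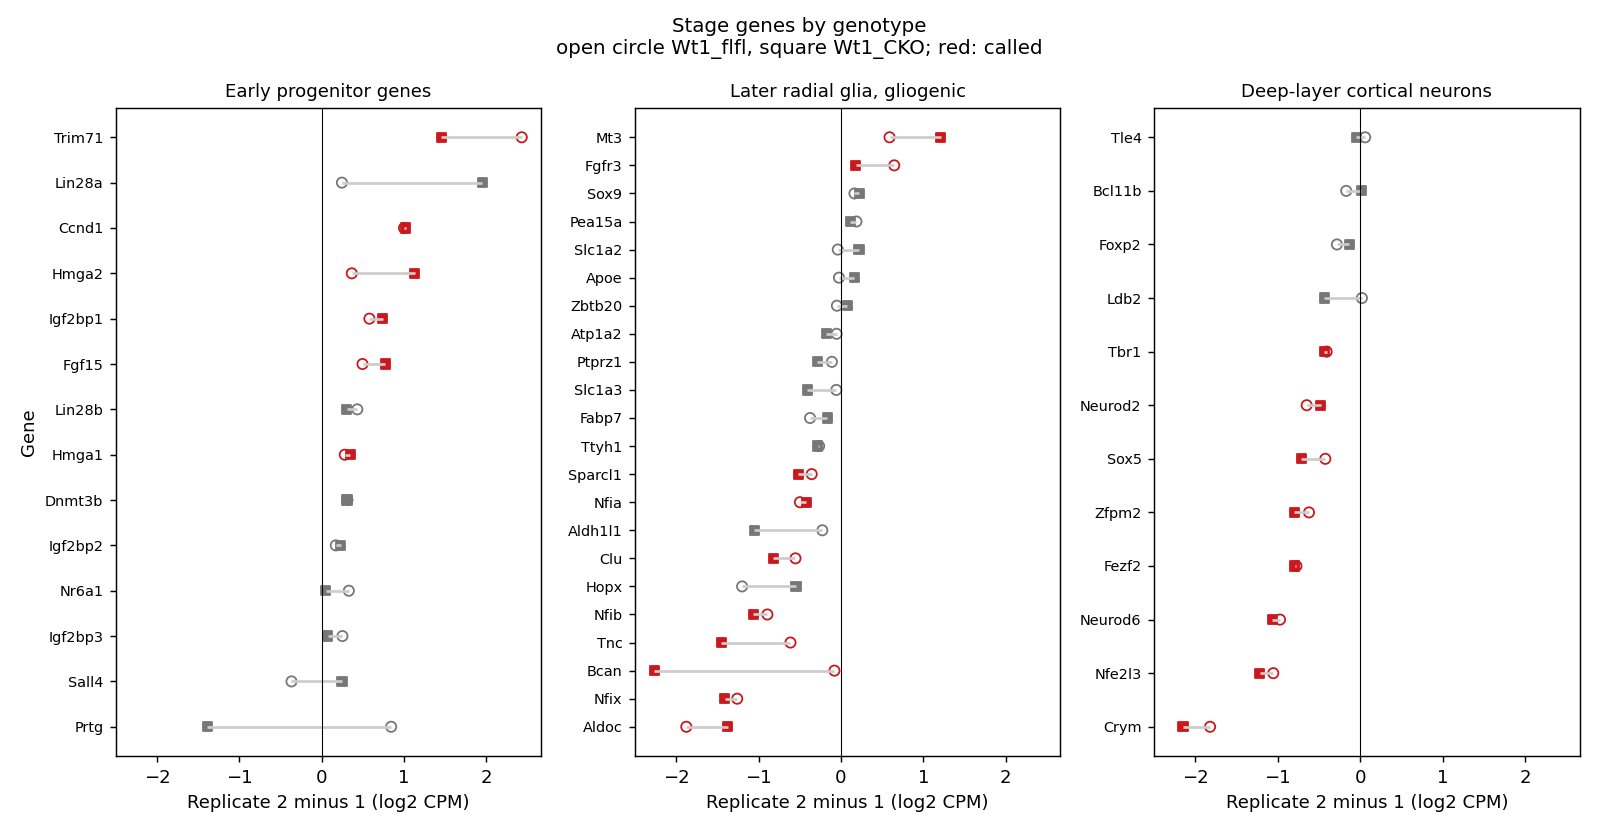
Replicate 2 minus replicate 1 in log2 CPM for the tested members of 3 stage lists, with open circles for Wt1_flfl, squares for Wt1_CKO and red for called genes. The 6 called early progenitor genes lie to the right of 0, and the 8 called deep-layer genes lie to the left in both genotypes.

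Regional genes differed in the same 4 libraries. Of 16 dorsal telencephalon genes, all tested, 8 were called lower and 1 higher, with a median of -0.358 and a summed level of 3041, 3206, 2301 and 2496 CPM. Neurod6, Neurod2, Tbr1 and Eomes belong to this list as well as to lists above. Emx1, a transcription factor of the cortical primordium, stood at 84.1, 87.2, 48.9 and 67.9 CPM (-0.57 ± 0.21, adjusted p = 0.00254), and Lhx2, a selector gene of the cortex, at 395, 420, 260 and 326 CPM (-0.48 ± 0.12, adjusted p = 0.00413). Emx2 was not called, with a log2 difference of 0.04 ± 0.11. Nr2f2, which marks caudal cortex and the caudal ganglionic eminence, was called higher at 147, 117, 244 and 162 CPM (0.60 ± 0.13, adjusted p = 0.000473). Without Wt1_flfl replicate 1, 1 gene of the list was called lower, and the count was again 1 without Wt1_CKO replicate 1. It was 2 when Wt1_flfl replicate 2 was left out.

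Of 22 genes of the ventral telencephalon and GABAergic cells, all tested, 12 were called higher and none lower. In both genotypes 18 were higher (5135 of 15933 over all tested genes). The median was 0.381 and the summed level 2396, 1909, 2994 and 2632 CPM. Nkx2-1, the selector gene of the medial ganglionic eminence and hypothalamus, stood at 105, 103, 270 and 191 CPM (1.13 ± 0.23, adjusted p = 1.48e-06). Dlx2, a factor of ventral progenitors, stood at 238, 184, 352 and 300 CPM (0.63 ± 0.07, adjusted p = 0.000189), and Lhx8, a factor of cholinergic neurons, at 39.0, 32.8, 57.9 and 51.6 CPM (0.61 ± 0.04, adjusted p = 0.00167). In each of the 3 the replicate 2 brains were higher than both replicate 1 brains, and within each number Wt1_flfl lay above Wt1_CKO. Without Wt1_CKO replicate 1 no gene of the list was called in edgeR, without Wt1_flfl replicate 1 there were 4, without Wt1_flfl replicate 2 there were 3, and DESeq2 called 6.

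Hypothalamic and ventral midline genes had the largest list median among the regional lists with more than 10 tested genes, at 1.24, and 9 of 14 tested genes (of 19 listed) were called higher. The size differed between the genotypes: the median was 2.057 inside Wt1_flfl and 0.242 inside Wt1_CKO, a difference that was not tested. Otp, a factor of neuroendocrine hypothalamic neurons, stood at 5.98, 11.5, 84.0 and 16.2 CPM (2.14 ± 1.65, adjusted p = 0.00464). Fezf1, a factor of the ventromedial hypothalamus, stood at 23.9, 21.5, 67.7 and 34.9 CPM (1.11 ± 0.40, adjusted p = 0.000165), and Shh, the ventral midline signal, at 3.42, 3.99, 13 and 6.79 CPM (1.35 ± 0.57, adjusted p = 0.00308). Both replicate 2 brains were above replicate 1 for these genes, with Wt1_flfl replicate 2 far the highest. Without Wt1_flfl replicate 2, 3 of the list's genes were called higher with a median of 0.71, DESeq2 called 2, and none was called in edgeR without Wt1_flfl replicate 1 or, in another fit, without Wt1_CKO replicate 1. Nkx2-2, a ventral progenitor factor, was high in Wt1_flfl replicate 2 alone, at 0.623, 0.225, 9.35 and 0.0581 CPM.

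Of 8 midbrain genes tested (of 20 listed), 3 were called higher, among them Th, tyrosine hydroxylase of dopaminergic neurons, at 5.92, 4.50, 13 and 9.81 CPM (1.13 ± 0.01, adjusted p = 0.0016). The others are Tal1, also in the red cell list, and Otx2, also in the list of cortical hem, roof plate and choroid plexus. Nr4a2 of the midbrain list was not called, at 15.32, 19.45, 15.6 and 15.85 CPM (-0.14 ± 0.16, adjusted p = 0.687). The list's summed level, 479.5, 452.0, 472.6 and 508.2 CPM, overlapped between the numbers. No midbrain gene was called in DESeq2, or in edgeR without Wt1_flfl replicate 1 or, in another fit, without Wt1_CKO replicate 1, and 1 was called without Wt1_flfl replicate 2. Of 16 genes of thalamus, habenula and prethalamus, 1 was called higher (Barhl2) and 1 lower (Lhx2, also in the dorsal telencephalon list). DESeq2 called no gene of that list higher. None of 3 hindbrain genes was called in edgeR, nor any at an unadjusted p under 0.05 (0 by DESeq2 and limma-voom). Dct, a pigment cell enzyme in the eye list, was lower at 13.7, 14.7, 0.818 and 5.46 CPM (-2.41 ± 1.24, adjusted p = 0.000378). Ttr, made by the choroid plexus, varied without regard to number, at 0.249, 40.3, 12.5 and 0.987 CPM. Whether the regional, stage and blood differences are linked was not tested.

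**Figure D4:**
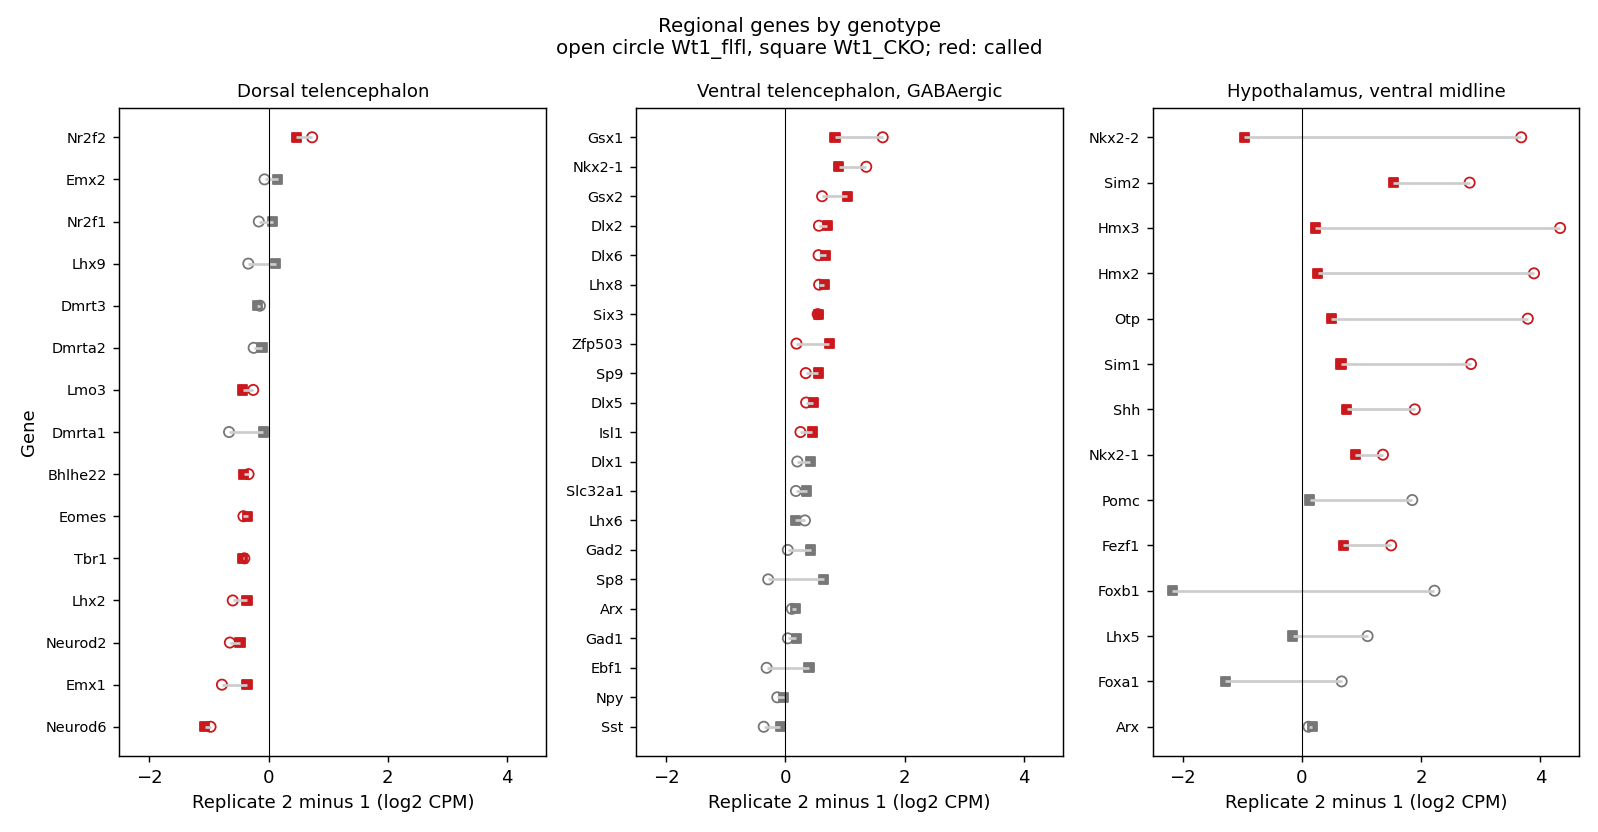
Replicate 2 minus replicate 1 in log2 CPM for tested members of 3 regional lists (those reported here), with open circles for Wt1_flfl, squares for Wt1_CKO and red for called genes. Dorsal genes lie mostly left of 0 and ventral genes mostly right in both genotypes, while hypothalamic genes lie far to the right in Wt1_flfl (median 2.057) and near 0 in Wt1_CKO (median 0.242).

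The genes with the smallest p-values included several outside these lists. Gm13394, annotated as a processed pseudogene, stood at 457, 414, 4.79 and 3.77 CPM, the smallest p of all (-6.67 ± 0.10, adjusted p = 1.35e-17). Rps18 and Rpl30, ribosomal proteins, were lower at 214, 192, 46.3 and 51.9 CPM (-2.05 ± 0.16) and at 129, 115, 42.8 and 46.5 CPM (-1.45 ± 0.14). BC002163, another processed pseudogene, stood at 16.2, 13.9, 0.117 and 0.290 CPM. For each of the 4 genes the 2 numbers were far apart, and for Gm13394, Rps18 and Rpl30 the 2 libraries of a number were close. BC002163 rested on 2 and 5 counts in the replicate 2 libraries. Over 82 ribosomal protein genes, 11 were called higher and 2 lower (Rps18 and Rpl30), with a median log2 difference of 0.005. Vcp-rs, a processed pseudogene of Vcp, was higher at 67.1, 73.1, 200 and 192 CPM (1.48 ± 0.09), while Vcp itself, named after its values were seen, stood at 402, 385, 335 and 315 CPM and was not called. Reads of such near-identical copies could be split differently by the counting, so their values are uncertain, and whether the counting differed between the 2 tables was not tested.

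Id2, an inhibitor of differentiation factors, was lower at 151, 150, 70.0 and 72.8 CPM (-1.08 ± 0.03, adjusted p = 6.05e-07). Dynll2, a dynein light chain, was higher at 189, 186, 373 and 360 CPM (0.97 ± 0.02, adjusted p = 1.48e-06), and Ntn1, the axon guidance cue netrin, was higher at 71.2, 67.6, 125 and 120 CPM (0.82 ± 0.01, adjusted p = 1.49e-05). In these 3 genes the 2 brains of a number differed by far less than the numbers did. mt-Rnr2, a mitochondrial ribosomal RNA, was lower at 1083, 518, 310 and 232 CPM, and Lars2, a mitochondrial leucyl-tRNA synthetase, at 1876, 502, 99.1 and 176 CPM. Both were highest in Wt1_flfl replicate 1, the library with the most annotated ribosomal RNA, whose part in these differences was not tested. By annotated class, processed pseudogenes were called at 8.23% (46 of 559) and protein-coding genes at 7.27% (992 of 13653), both near the 7.14% of all genes. The genes called in every fit without 1 library nevertheless included the processed pseudogenes BC002163, Gm10182, Gm11223, Gm12191, Gm13394, Gm5898 and Vcp-rs. The limit given above for near-identical copies may apply to these genes, and their share among such calls was not tested.

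**Figure D5:**
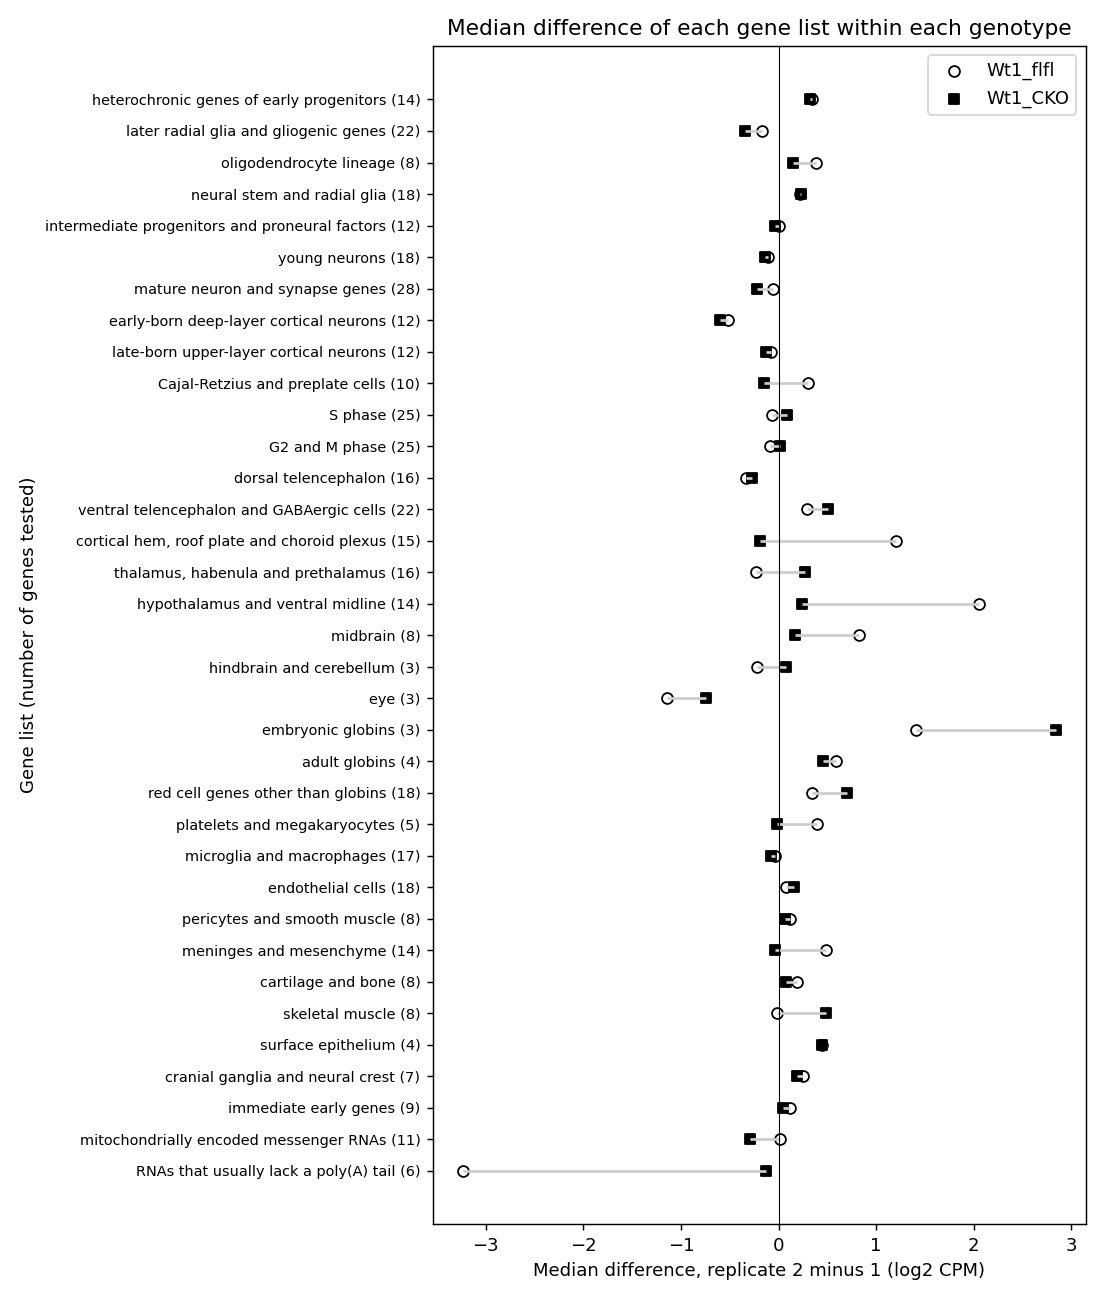
Median difference, replicate 2 minus replicate 1 in log2 CPM, of each list with at least 3 tested genes, with open circles for Wt1_flfl, squares for Wt1_CKO and the number tested in brackets. Embryonic globins lie farthest right in Wt1_CKO (2.842), deep-layer genes lie left of 0 in both genotypes, and non-polyadenylated RNAs lie at -3.236 in Wt1_flfl and -0.132 in Wt1_CKO.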

How the data were processed

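Reads were handled with TopHat2 2.0.12, HTSeq 0.6.0 and Bowtie2 2.2.3 on build mm9, per the submitters' processing notes. Of 19462 gene identifiers also in GENCODE vM21 (GRCm38), 17821 had the same position there. The authors deposited 1 table per replicate number, and the whole-number counts of 2 libraries in each, per the file headers, were joined on the gene identifier. Other deposited columns were not used. Genes listed in both tables (19500) were kept, and the edited gene's own transcript and some list members are not reported here. edgeR 4.0.16 fitted genotype plus replicate number after filterByExpr (minimum count 10) and TMM, with Benjamini-Hochberg adjustment. CPM are TMM-adjusted; differences within a genotype use a prior count of 2. The SE is the absolute gap between the differences in the 2 genotypes, divided by 2. Alternatives used DESeq2 1.42.0 and limma 3.58.1 (voom); the fit was tested on simulated data. Labels do not pair libraries beyond the shared number.

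The comparison and the 39 gene lists were chosen with earlier results of these data known, and no list was tested as a set. Genes named were the 10 per direction with the smallest p and the 10 with the largest fold (mean at least 5 CPM, same direction in both genotypes), up to 5 per list by p, and 30 fixed genes.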

Additional observations from a re-analysis of the deposited data

Results flagged for a closer look

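In 10 gene lists with at least 5 tested genes the median log2 difference between the numbers went one way in Wt1_flfl and the other way in Wt1_CKO. The difference between the genotypes was not tested, and with 2 brains per genotype each value rests on 1 pair. Lists higher in replicate 2 inside Wt1_flfl only were Cajal-Retzius and preplate cells (0.306 in Wt1_flfl, -0.146 in Wt1_CKO), cortical hem, roof plate and choroid plexus (1.206 and -0.187), meninges and mesenchyme (0.486 and -0.038), platelets and megakaryocytes (0.391 and -0.012), intermediate progenitors and proneural factors (0.003 and -0.033) and mitochondrially encoded messenger RNAs (0.019 and -0.293). Lists higher inside Wt1_CKO only were thalamus, habenula and prethalamus (-0.233 and 0.267), skeletal muscle (-0.019 and 0.487), S phase (-0.065 and 0.085) and G2 and M phase (-0.085 and 0.012). The hindbrain and cerebellum list, with 3 tested genes, also changed sign (-0.222 and 0.075). Among called genes, Nkx2-2 differed by 3.677 in Wt1_flfl and -0.964 in Wt1_CKO, and Rn7sk, a small nuclear RNA, by -6.323 and 0.154.

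Genes listed in the table of 1 replicate number only were outside the tests. The hypothalamic and eye gene Six6 had 131 counts in Wt1_flfl replicate 2. Genes of the Y chromosome were listed in Wt1_CKO replicate 1, the library with 4 counts of Xist. They were Kdm5d (1141 counts), Uty (512), Ddx3y (846), Eif2s3y (1776) and Gm29650 (272). Wt1_flfl replicate 1 had 4 counts of Eif2s3y, 2 of Gm29650 and 0 of Kdm5d, Uty and Ddx3y.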

How the results depend on the processing

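Changing the scaling, the low-count filter or the gene set moved the 1138 calls to between 835 (listed totals) and 1145 (genes of either table), and limma-voom gave 1172. Leaving out the genotype term gave 313 (141 higher, 172 lower) and DESeq2 gave 280 (140 and 140). Fits without 1 library, which drop the genotype term and assume that the lone library varies like the others, ranged from 71 to 940 calls, from 28 to 488 higher and from 43 to 452 lower. With the replicate block, genotype gave 42 calls against 1 without it; the numbers come from the sample titles. Nkx2-2 reversed to -2.7 without Wt1_flfl replicate 2 (adjusted p = 0.558, not called) and was 4.465 without Wt1_CKO replicate 2. With 2 brains per number and 1 residual degree of freedom, calls depend strongly on the shared spread, and the cause of the losses was not tested. The alternative restricted to protein-coding genes (1140 calls) was chosen after seeing the data.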
